A study of Mus musculus with 6 samples.

Results

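The genes described here are 9 components of the Nodal pathway, chosen by name out of 23951 genes in the authors' deposited table: the ligand Nodal, its coreceptor Tdgf1 (Cripto), the receptors Acvr1b and Acvr2b, the transducers Smad2 and Foxh1, and the secreted antagonists Lefty1, Lefty2 and Cer1. Of these 9 genes, 8 were among the 14095 genes that the authors tested and Cer1 was not. Messenger RNA was sequenced from mouse embryonic stem (ES) cells of the TT2 line, which has a C57BL6 x CBA background. The knockout (KO) cells are labelled as knocked out for Alkbh1, a gene of the AlkB family of dioxygenases, and gave 4 libraries, 2 from each of 2 clones. The wild-type (WT) TT2 cells gave 2 libraries. Cells of both genotypes were at passage 5 and were kept in ES cell medium with no feeder layer. The labels do not say how the KO allele was made, which part of Alkbh1 it removes, or whether the libraries of a clone came from separate cultures.

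Nodal is a secreted ligand of the TGF-beta family. It signals through a type I receptor (Acvr1b), a type II receptor (Acvr2a or Acvr2b) and an EGF-CFC coreceptor (Tdgf1), and the receptors phosphorylate SMAD2 and SMAD3, which enter the nucleus with SMAD4 and act on DNA with partners such as FOXH1. Lefty1 and Lefty2 are targets of this signal, and their proteins block it by binding Nodal and its coreceptor, so the pathway holds a negative feedback loop. In mouse ES cells the pathway is active through autocrine ligands, and in the embryo it patterns the epiblast, the primitive streak and the left-right axis.

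Each gene has 1 FPKM value for KO and 1 for WT in the authors' deposited table (fragments scaled to transcript length and to library size), and the table does not say which libraries of a genotype entered it. The levels below therefore carry no SD and no n, single libraries and the KO clones cannot be compared, and the depth is unknown. A gene is called at the authors' q under 0.05. The authors' test called 50.8% of the tested genes in either direction. Of all tested genes 28.4% were called lower in KO and 22.4% higher in KO, so a call by itself does not set a gene apart. A difference between these KO clones and these WT cells cannot be told apart from a difference between clones. The ES cell identity of the samples was checked on 10 core ES cell genes, among them Pou5f1, which stood at 716 FPKM in KO and 1222 FPKM in WT, and Sox2, at 164 FPKM in KO and 278 FPKM in WT in the authors' deposited table. The targeted gene Alkbh1 was listed there at 18.1 FPKM in KO and 33.9 FPKM in WT, with q = 0.0943, so transcript counted for this gene remained in the KO libraries and the gene was not called.

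Of the 8 tested genes, 4 were called lower in KO (Lefty1, Lefty2, Tdgf1 and Foxh1), 1 was called higher (Acvr1b) and 3 were not called (Nodal, Acvr2b and Smad2) in the authors' deposited table. The calls of Lefty1 and Lefty2 rest on drops of 8.29-fold and 5.73-fold, while those of Tdgf1 and Foxh1 rest on log2 fold changes of -0.58 and -0.57, which turn positive once the totals of both genotypes are made equal. The median log2 fold change of KO over WT was -0.44 over the 8 tested genes. Over all 14039 tested genes whose deposited fold change was finite it was -0.06. Fold change fell with level, however, and over genes at or above the median level the median was -0.37. Set against genes of like level (the deciles by mean FPKM described below), the median of the 8 was -0.07. At least 2-fold lower were Lefty1 and Lefty2, where 5.36% of all tested genes were called with such a drop, and at least 2-fold higher was Acvr1b, where 9.04% were called with such a rise. In bulk samples such as these, fewer cells of a type and less RNA per cell cannot be told apart.

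**Figure D1:**
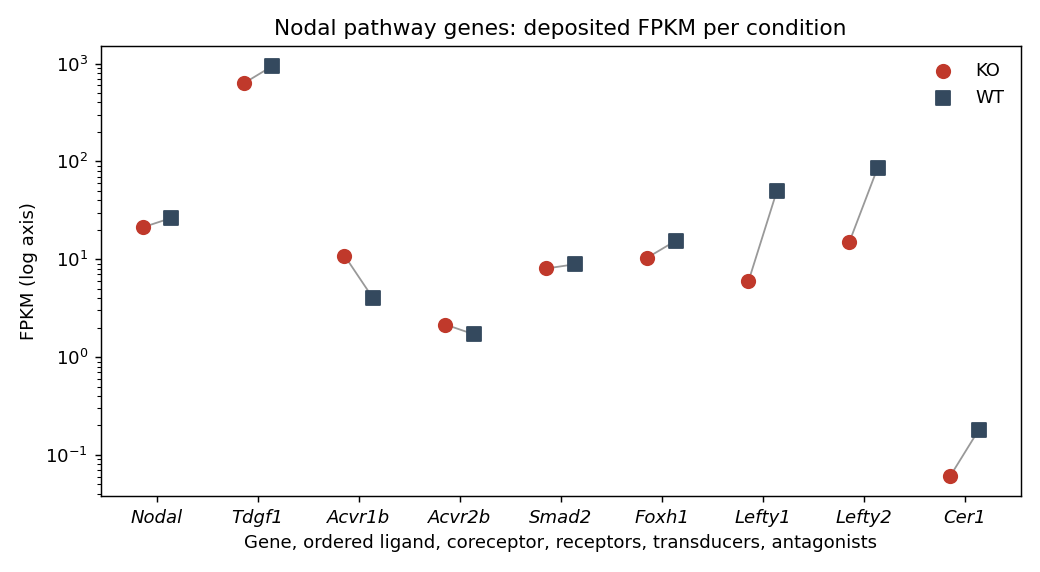
FPKM of the 9 genes in KO (red circles, left of each pair) and WT (blue squares, right of each pair) on a log axis, 1 deposited value per genotype with no error. Lefty1 and Lefty2 show the longest drops to their KO values, Acvr1b has the higher KO value (10.9 FPKM in KO against 4.03 FPKM in WT), and Tdgf1 is the most abundant of the 9 in both genotypes.

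Across the whole table, fold change followed level. The median log2 fold change was 0.69 in the lowest decile of tested genes by mean FPKM and -0.72 in the highest. Each of the 8 tested pathway genes is therefore also given against the genes of its own decile. The FPKM values of tested genes also summed differently, to 624340 in KO and 981679 in WT. If both sums were made equal, every log2 fold change of KO over WT would rise by 0.65. Lefty1, Lefty2 and Acvr1b keep their direction under each scaling that was tried, and Tdgf1 and Foxh1 do not.

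**Figure D2:**
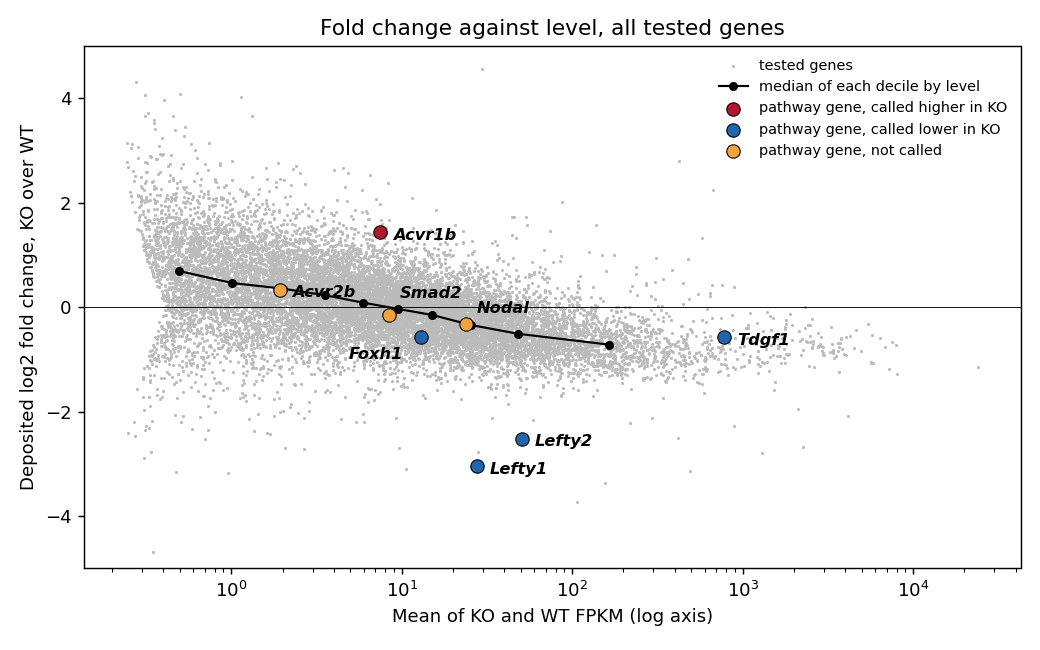
Deposited log2 fold change of KO over WT (vertical axis) against the mean of the KO and WT FPKM (horizontal log axis) for the tested genes (grey), with the median of each decile by level (black line) and 8 Nodal pathway genes (coloured by the authors' call). Lefty1 at -3.05 and Lefty2 at -2.52 lie far below the line, Acvr1b at 1.43 lies above it, and Nodal, Acvr2b and Smad2 lie close to it. The axis leaves out 1 gene beyond a log2 fold change of 5 in size.

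The promoters of 3 of these genes are printed here because they belong to the ligand, the coreceptor that was called lower and the receptor that was called higher. Each line gives the 250 bases before the annotated start, 5′ to 3′ on the strand of the gene, from RefSeq on build GRCm38.p6, which is not the build of the expression table. Capitals mark 2 motifs searched on both strands, TGTNNATT, a form of the FOXH1 motif, and CAGAC, a SMAD-binding element, which do not overlap here. The windows are chr10:61417722-61417971 on the plus strand for Nodal, chr9:110946159-110946408 on the minus strand for Tdgf1 and chr15:101173822-101174071 on the plus strand for Acvr1b.
Nodal: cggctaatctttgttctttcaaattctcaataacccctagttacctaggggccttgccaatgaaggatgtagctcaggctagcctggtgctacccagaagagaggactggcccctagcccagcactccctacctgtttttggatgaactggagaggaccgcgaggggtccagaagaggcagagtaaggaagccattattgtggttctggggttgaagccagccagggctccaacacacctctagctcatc
Tdgf1: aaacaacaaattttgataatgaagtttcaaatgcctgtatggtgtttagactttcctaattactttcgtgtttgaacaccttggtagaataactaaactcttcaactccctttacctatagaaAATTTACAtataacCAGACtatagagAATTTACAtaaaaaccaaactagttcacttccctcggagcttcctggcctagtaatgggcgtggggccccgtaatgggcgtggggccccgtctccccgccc
Acvr1b: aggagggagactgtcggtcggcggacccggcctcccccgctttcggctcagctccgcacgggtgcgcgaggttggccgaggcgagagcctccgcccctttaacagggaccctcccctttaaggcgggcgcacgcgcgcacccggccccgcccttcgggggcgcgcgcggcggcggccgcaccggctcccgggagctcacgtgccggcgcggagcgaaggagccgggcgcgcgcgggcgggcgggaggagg

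The Tdgf1 window held 2 matches to TGTNNATT, both on the opposite strand and therefore reading AATTTACA, with 1 match to CAGAC between them. The Nodal and Acvr1b windows held neither motif. Among 32851 RefSeq promoter windows of the same length, 10.9% held TGTNNATT and 42.2% held CAGAC. The Acvr1b window had 78.8% G and C with 42 CpG dinucleotides, the Nodal window 53.2% with 3 and the Tdgf1 window 42.0% with 7, where the median window had 52.4% with 6. A match describes the letters of the window and not a bound site. RefSeq promoters were matched for 5 of the 9 genes (Nodal, Tdgf1, Cer1, Acvr1b and Acvr2b), and those of Lefty1, Lefty2, Foxh1 and Smad2 were not used here.

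The ligand gene itself was not called. Nodal (chromosome 10, 60880719 to 60888085, mm9) stood at 21.1 FPKM in KO and 26.3 FPKM in WT in the authors' deposited table. Its log2 fold change was -0.32, with p = 0.0507 and q = 0.0902 in the authors' test, and it was not called. This value was 0.03 above the median of its decile by level, where 740 of 1409 genes lay below it in fold change. In rank by level among the tested genes Nodal stood at 3726 in KO and 3655 in WT.

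Of the other ligand genes, Gdf3 and Inhbb were called lower in the authors' deposited table, and Inhbb would not be lower with equal totals. Gdf3, a Nodal-related ligand that also depends on the Cripto coreceptor, fell to 26.1 FPKM in KO, against 57.2 FPKM in WT, at a log2 fold change of -1.13 with q = 0.000206, and it stayed lower with equal totals. Inhbb, which encodes a subunit of activin B, was called lower at 7.82 FPKM in KO and 11.2 FPKM in WT in the authors' deposited table, but its log2 fold change turns to 0.13 with equal totals. Against its decile by level Inhbb lay 0.49 below the median. Gdf1 was listed at 0.194 FPKM in KO and 0.984 FPKM in WT and was not called (q = 0.247 in the authors' deposited table); the table gives it the same region as Cers1, so its reads are uncertain. Inha, an inhibin subunit, was at 1.14 FPKM in KO and 1.23 FPKM in WT (q = 0.764 in the authors' deposited table). Inhba was not tested and was listed at 0 in WT. Of the 5 tested ligand genes, Nodal included, 2 were thus called lower and none higher, where 28.4% of all tested genes were called lower and 22.4% higher. In the deciles by level of Gdf3 and Inhbb, 59.5% and 22.4% of genes were called lower.

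The proteases Furin and Pcsk6, which cleave the Nodal precursor, were both called higher. Furin stood at 2.09 FPKM in KO and 0.842 FPKM in WT, and Pcsk6 at 9.32 FPKM in KO and 5.07 FPKM in WT, with log2 fold changes of 1.31 and 0.88 and q = 0.000206 for each in the authors' deposited table. Both stayed higher with equal totals and against their deciles by level. Of all tested genes 22.4% were called higher, and in the deciles of Furin and Pcsk6 39.5% and 25.8% were. A related convertase gene, Pcsk7, was not called, at 3.81 FPKM in KO and 4.65 FPKM in WT in the authors' deposited table, and Pcsk5 was not tested.

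The coreceptor Tdgf1 was the most abundant of the 9 genes in both genotypes. Tdgf1 (chromosome 9, 110842111 to 110848662, mm9) stood at 625 FPKM in KO and 934 FPKM in WT in the authors' deposited table, where it was called lower at a log2 fold change of -0.58 with q = 0.00163, but this turns to 0.07 with equal totals and to 0.14 above the median of its decile by level. In that decile, the highest, 76.6% of the genes were called lower in KO. Its rank by level was 154 in KO and 165 in WT. Tdgf1 shares 12.5% of the 50-base stretches of its transcript with a pseudogene, Tdgf1-ps1, so a part of its reads may be assigned to either. The other EGF-CFC coreceptor gene, Cfc1, was low at 0.692 FPKM in KO and 0.626 FPKM in WT, and was not called (q = 0.772 in the authors' deposited table).

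The type I receptor gene rose while the type II receptor genes were not called. Acvr1b (chromosome 15, 101004555 to 101043032, mm9) stood at 10.9 FPKM in KO and 4.03 FPKM in WT in the authors' deposited table. Its level was thus 2.70-fold higher in KO, at a log2 fold change of 1.43 with q = 0.000206 in the authors' deposited table. It lay 1.35 above the median of its decile by level, where 1379 of 1402 genes had a lower fold change. Its region in the table is also given for the microRNA gene Mir6962, which was listed at 0 in both genotypes. Acvr2b (chromosome 9, 119311618 to 119342624, mm9) was not called, at 2.15 FPKM in KO and 1.71 FPKM in WT (log2 fold change 0.33, q = 0.252 in the authors' deposited table), and lay 0.02 below the median of its decile. Acvr2a, the other type II receptor gene, was at 2.63 FPKM in KO and 2.50 FPKM in WT (q = 0.905 in the authors' deposited table). Acvr1c, an alternative type I receptor gene, was not tested and was listed at 0 in WT. Within a genotype, the ratio of Acvr1b to Acvr2b was 5.07 in KO and 2.36 in WT.

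The receptor-regulated SMADs were not called or were called slightly higher. Smad2 stood at 8.04 FPKM in KO and 8.88 FPKM in WT in the authors' deposited table, at a log2 fold change of -0.14 with q = 0.460. It lay 0.11 below the median of its decile by level. Smad3 was called higher, at 2.66 FPKM in KO and 1.96 FPKM in WT (log2 fold change 0.44, q = 0.0354 in the authors' deposited table), and lay 0.09 above the median of its decile. Smad4, the common partner SMAD, was at 16.8 FPKM in KO and 17.5 FPKM in WT and was not called (q = 0.794 in the authors' deposited table).

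The DNA-binding partner Foxh1 was called lower. Foxh1 (chromosome 15, 76498653 to 76500378, mm9) stood at 10.4 FPKM in KO and 15.4 FPKM in WT in the authors' deposited table, at a log2 fold change of -0.57 with q = 0.00361, which turns to 0.08 with equal totals. Against its decile by level it lay 0.42 below the median, with 288 of 1401 genes lower, and 31.3% of the decile was called lower in KO. Against genes of like level and like transcript length the difference from the median was -0.17. The ratio of Foxh1 to Smad2 was 1.29 in KO and 1.74 in WT. Of the 8 other genes of SMADs and nuclear partners, 4 were called higher (the coactivator genes Ep300 and Med15, Smad3 and the T-box gene Eomes), 1 lower (Gtf2i) and 3 were not called (Smad4, Trim33 and Mixl1) in the authors' deposited table. Gtf2i turns to a log2 fold change of 0.19 with equal totals, and lay 0.12 below the median of its decile. Of all tested genes 28.4% were called lower and 22.4% higher. In the decile of Smad3 and Eomes 39.5% were called higher, and in that of Ep300 and Med15 19.0%.

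The feedback antagonists Lefty1 and Lefty2 fell furthest. Lefty1 (chromosome 1, 182865169 to 182868532, mm9) fell to 5.94 FPKM in KO, against 49.2 FPKM in WT, in the authors' deposited table. The KO value was 12.1% of the WT value, at a log2 fold change of -3.05 with q = 0.000206 in the authors' deposited table. Of 14039 tested genes with a finite fold change, 7 had a lower one. In its decile by level, 0 of 1409 genes did, and the difference from the decile's median was -2.71.

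Lefty2 (chromosome 1, 182823249 to 182829233, mm9) fell to 15.1 FPKM in KO, against 86.3 FPKM in WT, in the authors' deposited table, 17.4% of the WT value. Its log2 fold change was -2.52 with q = 0.000206 in the authors' deposited table, and 18 tested genes had a lower one. It too had the lowest fold change of its decile by level, 0 of 1402 genes lying below it, at a difference of -2.01 from the median. With equal totals the log2 fold changes of Lefty1 and Lefty2 would be -2.40 and -1.87. The smallest p-value that the authors' test gave was 5e-05, which Lefty1, Lefty2 and Acvr1b share with other genes, 3418 called genes in all, so q does not order them.

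Markers of cell types other than ES cells were measured beside the fall of the Lefty genes. The summed level of 10 primitive streak and mesendoderm markers was 5.22 FPKM in KO and 3.76 FPKM in WT, with 3 tested and 2 called higher (Eomes and Mesp2). For 12 primitive endoderm markers the sums were 26.3 FPKM in KO and 25.8 FPKM in WT, and for 10 trophoblast markers 65.5 FPKM in KO and 64.3 FPKM in WT. For 8 neuroectoderm markers they were 56.0 FPKM in KO and 57.1 FPKM in WT, and for 10 fibroblast markers 119.8 FPKM in KO and 121.6 FPKM in WT. Single markers moved both ways. Of all tested genes 28.4% were called lower and 22.4% higher. Most called markers lay in the 4 lowest deciles by level. There 5.46% to 13.0% of genes were called lower and 33.3% to 41.3% higher. Of 7 tested primitive endoderm markers 2 were called lower and 4 higher, and of 9 tested trophoblast markers 2 lower and 4 higher. Of 8 neuroectoderm markers 3 were called lower (Pax6, Sox1 and Sox11) and 3 higher (Map2, Msi1 and Ncam1). Of 7 tested fibroblast markers 3 were called lower and 4 higher. The near-equal neuroectoderm sums rest on Tubb3, a neuronal tubulin gene, at 42.4 FPKM in KO and 43.1 FPKM in WT. The fibroblast sums hold opposite shifts, Fn1 at 86.4 FPKM in KO and 51.9 FPKM in WT and Vim at 22.0 FPKM in KO and 61.4 FPKM in WT. Much of the trophoblast sums is Tfap2c, at 40.1 FPKM in KO and 45.7 FPKM in WT. Much of the primitive endoderm sums is Lamb1, at 13.0 FPKM in KO and 16.0 FPKM in WT. Pax6, a neural transcription factor gene, fell to 0.552 FPKM in KO, against 3.58 FPKM in WT, a log2 fold change of -2.70 in the authors' deposited table, which lies between those of Lefty1 and Lefty2. Sox1 and Sox11 had log2 fold changes of -2.17 and -1.63 in the authors' deposited table, and all 3 stay lower with equal totals. Map2, Msi1 and Ncam1 rose, at log2 fold changes of 1.12, 1.08 and 1.19 in the authors' deposited table. They stay higher with equal totals and against their deciles by level. With equal totals the sums in KO would be 2.18 times those in WT for the streak markers, 1.61 times for primitive endoderm, 1.60 times for trophoblast, 1.54 times for neuroectoderm and 1.55 times for fibroblast markers. These multiples include the shift given to every gene. The same step would lift the median of all tested genes, -0.06 as deposited, by 0.65 on the log2 scale. The fibroblast genes Col3a1 and Postn were listed at 0 in WT, and no other marker of these lists was listed at 0 in either genotype. The part of such cells in the values of the Nodal pathway genes was not tested. The 10 core ES cell markers summed to 4596 FPKM in KO and 7394 FPKM in WT, with 6 of 9 tested called lower and none higher. In their deciles by level 59.5% and 76.6% of genes were called lower. The KO sum was 62.2% of the WT sum, near the 63.6% for all tested genes, and would be 0.977 times the WT sum with equal totals. Much of both sums is Dppa5a, at 2099 FPKM in KO and 3753 FPKM in WT. Esrrb, Klf4 and Fgf4 were not called, at log2 fold changes of 0.17, -0.01 and 0.08, and the authors' test failed for Nanog. With equal totals Esrrb, Klf4 and Fgf4 would be at 0.82, 0.64 and 0.74.

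Lefty1 and Lefty2 are close paralogs. Their longest open reading frames are 1104 bases each and are 91.8% identical in GENCODE M21, with a longest identical run of 140 bases. Of the 50-base stretches of the longest coding transcript, 17.9% of those of Lefty1 also occur in Lefty2 transcripts, 11.6% of those of Lefty2 occur in Lefty1 transcripts, and no other gene shares any with either. The split of reads between the paralogs is uncertain to that extent, so their sum is also given. The sum was 21.0 FPKM in KO and 135 FPKM in WT. The ratio of Lefty1 to Lefty2 was 0.394 in KO and 0.570 in WT.

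In the order of levels Nodal stood above Lefty2 and Lefty1 in KO and below both in WT. In KO the order was Tdgf1, Nodal, Lefty2, Acvr1b, Foxh1, Smad2, Lefty1, Acvr2b and Cer1. In WT it was Tdgf1, Lefty2, Lefty1, Nodal, Foxh1, Smad2, Acvr1b, Acvr2b and Cer1. With no spread between libraries at hand, neighbours in either order, such as Acvr1b and Foxh1 in KO (10.9 and 10.4 FPKM in the authors' deposited table), cannot be said to differ. The FPKM of Lefty1 and Lefty2 together was 0.993 times that of Nodal in KO and 5.15 times in WT. This ratio within a genotype does not depend on how the genotypes were scaled to each other. With Gdf3 added to Nodal, the ratio of antagonists to ligands was 0.445 in KO and 1.62 in WT. The ratio of Tdgf1 to Nodal was 29.6 in KO and 35.5 in WT. These are ratios of messenger RNA levels per length, not of proteins.

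Other secreted antagonists were low in both genotypes. Cer1 (chromosome 4, 82527654 to 82531055, mm9), which encodes an antagonist of Nodal and BMP ligands, was at 0.0612 FPKM in KO and 0.180 FPKM in WT in the authors' deposited table, and was not tested. Dand5, a Nodal antagonist gene of the same family, was at 2.67 FPKM in KO and 3.16 FPKM in WT and was not called (q = 0.384 in the authors' deposited table). Fst, which encodes the activin-binding protein follistatin, was at 0.290 FPKM in KO and 0.488 FPKM in WT and was not called (q = 0.0553 in the authors' deposited table), and the related Fstl3 was not tested. Lefty1 and Lefty2 were the only called genes of the 4 tested in this list.

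**Figure D3:**
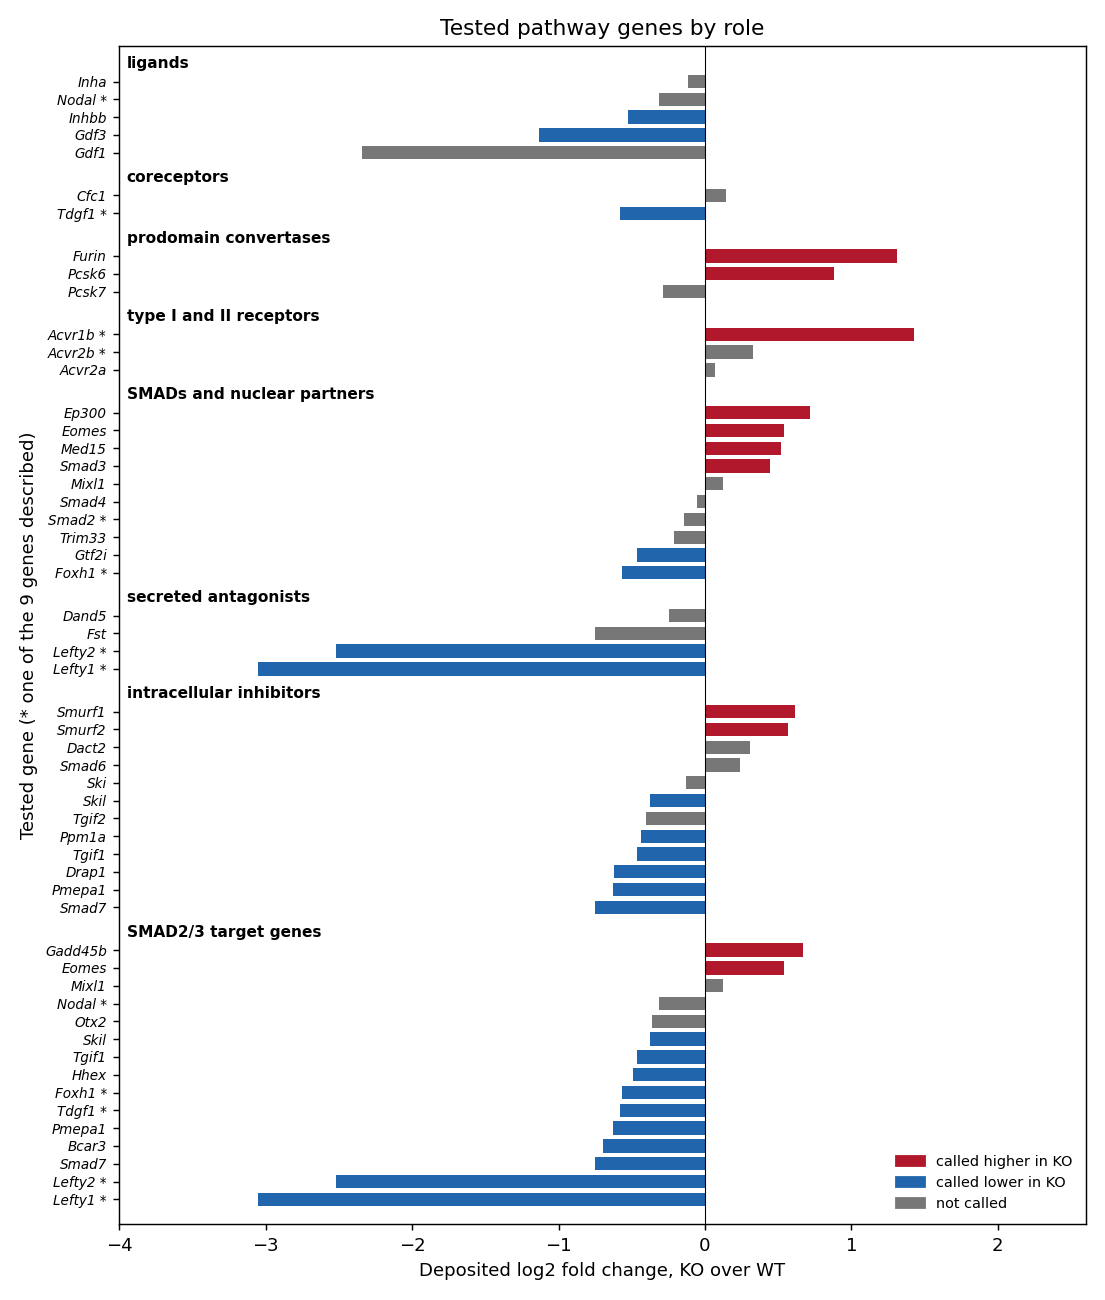
Deposited log2 fold change of KO over WT for the tested genes of 8 lists, grouped by role and sorted within a role, with red bars called higher in KO, blue bars called lower and grey bars not called; stars mark the genes described in full, and a gene of more than 1 list is drawn in each. Toward lower values the bars of Lefty1 and Lefty2 are the longest, followed by the uncalled Gdf1 at -2.34. Of the tested target genes 1 is not drawn.

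Among genes known as targets of SMAD2 and SMAD3, more were called lower than higher as measured, but most called ones would be higher with equal totals. Beside the 9 genes, the list held 18 such targets, of which 11 were tested: 7 were called lower (among them Smad7, Bcar3, Pmepa1, Hhex, Tgif1 and Skil), 2 higher (Eomes and Gadd45b) and 2 were not called (Mixl1 and Otx2) in the authors' deposited table. These 11 had a median of -0.46. Of all tested genes 28.4% were called lower and 22.4% higher. With equal totals the 9 called targets would split into 3 lower (among them Smad7 and Bcar3) and 6 higher. Against their deciles by level they would split into 6 lower and 3 higher. Of all tested genes, 16.8% were called and would be lower with equal totals, and 34% were called and would be higher. Against deciles by level these shares were 24.5% and 26.3%.

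Smad7, an inhibitory SMAD, fell to 4.06 FPKM in KO, against 6.85 FPKM in WT (log2 fold change -0.75, q = 0.000206 in the authors' deposited table). Pmepa1, whose product sequesters receptor SMADs, was called lower at 1.66 FPKM in KO and 2.58 FPKM in WT in the authors' deposited table, but reaches 0.02 with equal totals. Against its decile by level Pmepa1 lay 0.98 below the median. Gadd45b, a stress-inducible gene, was called higher at 12.7 FPKM in KO and 7.96 FPKM in WT in the authors' deposited table. The mesendoderm targets T, Gsc, Lhx1 and Foxa2 were not tested and lay at or below 0.312 FPKM in both genotypes in the authors' deposited table.

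More intracellular inhibitors of the pathway were called lower than higher as measured, but most called ones would be higher with equal totals. Of 12 tested, 6 were called lower (Smad7, Pmepa1, Drap1, Tgif1, Ppm1a and Skil), 2 higher (Smurf1 and Smurf2) and 4 were not called (Ski, Smad6, Tgif2 and Dact2) in the authors' deposited table, with a median of -0.39. Drap1, whose product represses FOXH1, was called lower at 53.7 FPKM in KO and 82.5 FPKM in WT in the authors' deposited table, but stands at 0.03 with equal totals. Against its decile by level Drap1 lay 0.11 below the median. The corepressor gene Tgif1 was called lower at 89.4 FPKM in KO and 123 FPKM in WT in the authors' deposited table, but stands at 0.19 with equal totals. Against its decile by level Tgif1 lay 0.25 above the median. Smurf1 and Smurf2, ubiquitin ligase genes, had log2 fold changes of 0.61 and 0.57 in the authors' deposited table and stay higher with equal totals and by decile. With equal totals Smad7 alone of the 8 called inhibitors would be lower. Against their deciles by level the 8 would split into 4 lower and 4 higher. Among all tested genes, 16.8% were called and would be lower with equal totals, and 34% were called and would be higher. Against deciles by level these shares were 24.5% and 26.3%. Of all tested genes 28.4% were called lower and 22.4% higher. In the decile of Drap1 and Ppm1a 59.5% were called lower, and in that of Tgif1 76.6%.

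Over all 56 pathway genes beside the 9, 44 were tested, 12 of them called lower and 13 higher, with a median of -0.08 in the authors' deposited table. Of all tested genes 28.4% were called lower and 22.4% higher, and no test of the lists was run.

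Lefty1 and Lefty2 lie 35.9 kb apart on chromosome 1. Among the 10 nearest tested genes around Lefty1, 5 on each side and leaving out Lefty2, 3 were called lower (among them H3f3a and Cnih4), 1 higher (Ephx1) and 6 were not called, with a median of -0.20. Tmem63a, the next tested gene beyond Lefty1, was not called, at 4.32 FPKM in KO and 4.96 FPKM in WT (q = 0.366 in the authors' deposited table). Ephx1, the epoxide hydrolase gene after it, was called higher, at 30.5 FPKM in KO and 10.3 FPKM in WT in the authors' deposited table. The lowest log2 fold change among these 10 neighbours was -1.28, that of the histone gene H3f3a. Over the neighbours of all 8 tested genes, counted once for each gene they neighbour, 31.2% of 80 were called lower. Of all tested genes 28.4% were called lower.

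**Figure D4:**
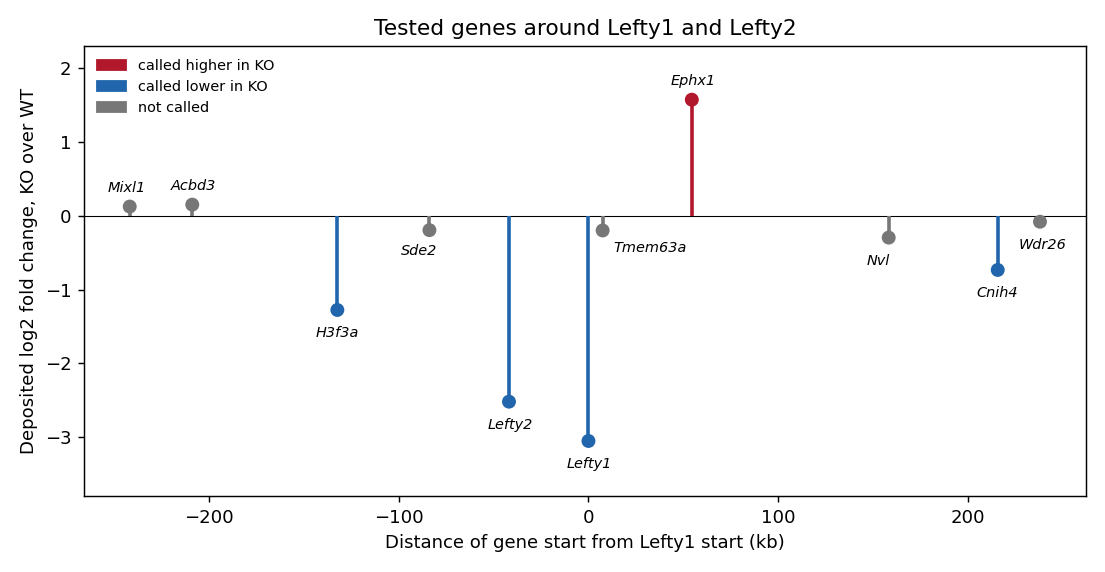
Deposited log2 fold change of KO over WT for Lefty1, Lefty2 and 9 of the 10 nearest other tested genes, against the distance of each gene's start from that of Lefty1 in kb, with red called higher in KO, blue called lower and grey not called. Lefty1 and Lefty2 lie below -2.5, H3f3a at -1.28, and Ephx1 at 1.57.

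Around Acvr1b, 0 of the 10 nearest tested genes were called lower and 3 were called higher, with a median of 0.44. Its neighbour Acvrl1, which encodes another type I receptor of the family, was among those called higher, at 0.612 FPKM in KO and 0.158 FPKM in WT in the authors' deposited table. Around Nodal, 3 of 10 were called lower and 4 higher.

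The tested genes most like each of 3 pathway genes were found by the distance between their log2 FPKM values over the 2 conditions. For Lefty2 they were 2410088K16Rik, Apela and Emb, at distances of 0.47, 0.54 and 0.60. Apela, which encodes a secreted peptide hormone, stood at 21.5 FPKM in KO and 96.3 FPKM in WT in the authors' deposited table. For Lefty1 they were Mir8110, Glod5 and Glipr1, at 0.26, 0.93 and 1.02, of which Mir8110 was not called (q = 0.264 in the authors' deposited table) and is a short gene with uncertain FPKM. For Nodal they were Akirin1, Ube2q2 and Actr8, at 0.023, 0.032 and 0.033. A likeness over 2 conditions says only that both levels are close.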

How the data were processed

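The members and lists, the tests and the alternatives were chosen with earlier results of these data known, and nothing here is independent support for them. Libraries were made from column-extracted total RNA with a strand-specific messenger RNA kit, per the labels' protocols, and aligned with TopHat2 to mm9, per the submitters' processing notes. Annotation, read length, library scaling and filters are not given in the sources used here. Per the file headers, the table was laid out as Cuffdiff lays out gene differences. Its FPKM values (1 for KO, 1 for WT), log2 fold change, test statistic (a score), p-value and q-value are the authors' own, as deposited. No test was run anew. The deposited q equalled a Benjamini-Hochberg adjustment over tested genes to within 5.18e-07.

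From these values, ratios within a genotype, deciles by mean FPKM, medians and counts were computed, and decile recentring was tested on simulated data. The simulated trend was flat within each decile, so this checked the computation and not its fit to these data. Named by rule are the 9 genes, genes checked for the table, called genes of the lists with uncalled ones needed to complete a count, the 3 nearest tested genes by level for Nodal, Lefty1 and Lefty2, and tested chromosomal neighbours. Transcript lengths are those of the longest GENCODE M21 transcript (found for 99.3% of tested genes). A transcript's shared stretches were counted at 50 bases, a length set here. Alternatives are given below. Coordinates are mm9, as in the table, and for promoters GRCm38.p6, and no coordinate was converted. Smad2's position and the values of 2 genes are not reported here. Python 3.11.15, NumPy 2.4.6, pandas 2.3.3 and Biopython 1.88 were used.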

Additional observations from a re-analysis of the deposited data

How the results depend on the processing

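Leaving out single libraries was not possible, since the table holds 1 value per genotype. No paired analysis was possible because no column carries a library or its replicate number. Of the 8 tested genes, 5 stayed called at q under 0.01 or with the filter on low levels, which leaves out Acvr2b. At q under 0.1, 6 are called, which adds Nodal. A pseudocount of 1 and 1 row per symbol kept the deposited q, and the recomputed adjustment equals it. These settings therefore could not change a call of the 8 genes. With at least 2-fold change, 3 are called, 2 lower and 1 higher, and 2 lower and 4 higher among the other pathway genes. Bonferroni over 14095 genes leaves 0 called in any list, since the smallest deposited p cannot pass it; 5 of the 8 have an unadjusted p under 0.05. Equal totals and recentring shift the fold changes but keep the authors' q, so their counts give directions of deposited calls, not new calls. With equal totals the 5 deposited calls split into 2 lower and 3 higher (16.8% and 34% of all tested genes). The deposited calls of the other pathway genes split into 4 lower and 21 higher. The median of the 8 turns to 0.21, and Nodal, Tdgf1, Foxh1 and Smad2 turn to 0.34, 0.073, 0.083 and 0.51. Recentred on genes at or above the median level, Nodal and Smad2 turn to 0.052 and 0.22. Recentred by decile, 2 of the 5 calls are higher, and Nodal, Tdgf1 and Acvr2b turn to 0.028, 0.14 and -0.022. The filter leaves 7 higher among the other pathway genes, with fewer genes tested. Classes by level and transcript length, or by WT or KO FPKM alone, were added after the data were seen: Lefty1 lay at -3.13 to -2.49 from the median of its class, with 0 genes below it, Lefty2 had 0 to 2 genes below it, Acvr2b turned to 0.071 by level and length and Nodal to -0.011 by KO FPKM. The cause of these turns was not tested beyond the shift itself. Depth is unknown, so no limit of detection can be set.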

Other observations

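Some receptor genes of the wider TGF-beta family were called higher. Of 8 tested genes beside the Nodal receptors, 4 were called higher in KO (Tgfbr3, Acvrl1, Amhr2 and Acvr1), none lower and 4 were not called (Bmpr1a, Bmpr1b, Tgfbr1 and Bmpr2) in the authors' deposited table, at a median of 0.42 on the log2 scale. Of all tested genes 22.4% were called higher and 28.4% lower, but in the deciles by level that hold the 4 called receptors, the first and the third from the bottom, 41.3% and 39.5% of tested genes were called higher. Tgfbr3, which encodes the coreceptor betaglycan, stood at 0.965 FPKM in KO and 0.220 FPKM in WT, and Amhr2, the receptor gene for anti-Müllerian hormone, at 2.15 FPKM in KO and 0.887 FPKM in WT in the authors' deposited table. All 4 stayed higher with equal totals and against their deciles by level. The called receptors are of low abundance, and the most abundant of the list, Bmpr1a, was at 13.8 FPKM in KO and 13.5 FPKM in WT in the authors' deposited table.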
